A study of Danio rerio with 6 samples.

Results

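The genes of fatty acid oxidation and of the peroxisome were followed in dissected guts of wild-type (WT) zebrafish larvae after 1 injection of rzIl26, a recombinant form of the fish's own cytokine IL-26, or of bovine serum albumin (BSA), the control protein. The larvae were 5 days post fertilization (dpf) old, the protein was placed in the gut and swim bladder, and the guts were taken 1 h later. Both proteins were used at 1 mg/mL, and the groups share genotype, age and the injection itself. Each library was a pool of 10 to 15 guts, with 3 libraries per group. The labels call the libraries biological replicates and do not say whether pools came from separate clutches, so p-values measure the spread between these pools. Members were taken from a list of names drawn up with earlier results of these data known, as 34 listed enzymes and carriers and every gene whose symbol begins with pex and a number. Of the resulting 47 genes 46 had a row in the count table, against 14570 named genes with a row in all, and each of the 46 had a single row. The carnitine palmitoyltransferase gene *cpt1ab* had no row, and *pex2*, *pex6*, *pex14*, *pex5la* and *pex5lb* of the name table were likewise not analysed here. A minimum count removed *crata* (3 counts over all 6 libraries) and *pex11a* (2 counts), so that 44 genes were tested.

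Fatty acids are broken down in mitochondria and in peroxisomes by similar cycles of oxidation, hydration, second oxidation and thiolysis, which shorten the chain and release acetyl-CoA. Mitochondria take up long chains through the carnitine shuttle and pass the electrons of the first step to the respiratory chain. Peroxisomes start on very long and branched chains, hand the first electrons to oxygen as hydrogen peroxide, and export the shortened chains. They import their enzymes folded from the cytosol with the help of proteins called peroxins. Absorptive enterocytes of the gut and hepatocytes of the liver are rich in both pathways. Peroxisomal and mitochondrial genes are described apart below, and 4 genes whose enzymes are assigned to both organelles form a group of their own.

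After rzIl26, 18 of the 44 genes were lower and 0 were higher at an adjusted p-value under 0.05 by edgeR's quasi-likelihood test, which was fitted to all transcript rows. The background was 9.6% of all 10576 rows tested called lower, 9.27% called higher and 18.9% called in either direction. At an unadjusted p-value under 0.05, 23 of the 44 were lower and 0 higher, where the share of all rows was 17.8% lower and 34.9% in either direction. Of the 44 genes 37 had a log2 fold change below 0, against 48.8% of all rows. The peroxisomal enzymes and transport proteins had 8 of 10 lower and, of the 4 classes, the lowest median log2 fold change of -0.47. The peroxins had 4 of 12 lower and a median of -0.30, and the mitochondrial genes 5 of 19 and a median of -0.12, where the median over all rows tested was 0.01. The log2 fold changes of the 44 genes ran from -0.70 to 0.15, so none changed by as much as 1 on this scale. Levels are given in CPM, counts per library total after multiplying that total by its TMM factor (0.92 to 0.98 for BSA and 1.049 to 1.07 for rzIl26). On this scale the groups did not overlap in 25 of the 44 genes, against 39.6% of all rows tested. In all 25 the rzIl26 libraries were the lower ones, where 20.9% of all rows were lower without overlap. This depended on the scaling. With library totals alone, an alternative chosen after seeing the data, 16 genes were lower and 8 higher without overlap. Of all rows, 41.5% did not overlap in either direction under that scaling, and 10.5% were lower without overlap. There the groups overlapped in 3 of the 18 called genes, *hsd17b4*, *pex7* and *pex16*.

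**Figure D1:**
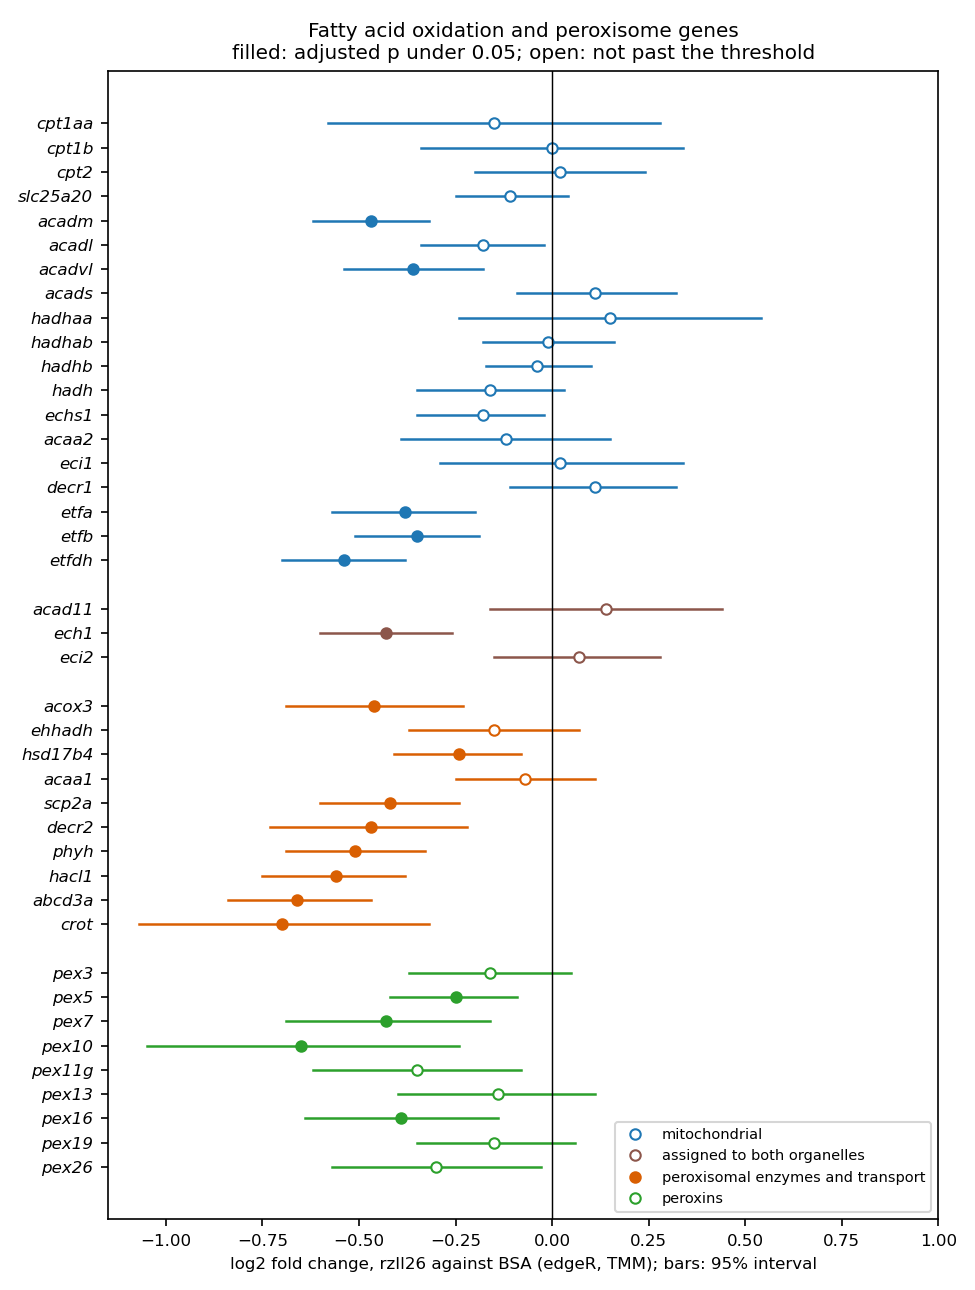
Log2 fold change of rzIl26 against BSA for 41 of the 44 genes tested, 1 gene per line with its 95% interval and coloured by class. Filled points mark the 18 genes past the threshold, all to the left of 0, while the lines of the carnitine shuttle and trifunctional protein genes cross or lie near 0.

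The libraries held 15156164 to 22219894 counts, and the 44 tested members between 57 and 26626 counts per library, with the lowest counts among the peroxins. As a check on the tissue label, the enterocyte marker *chia.2*, picked once the values were known, averaged 23431 CPM after BSA. By contrast *fabp2*, a defining enterocyte gene, was close to 0 in every library (0.172 to 1.66 CPM). Liver transcripts were present and differed between libraries, since *fabp10a*, a hepatocyte gene, had 416, 1525 and 490.1 CPM after BSA and 272, 1711 and 1532 CPM after rzIl26, with replicates given here and below in the order 1 to 3. The summed CPM of 16 liver genes was 5807 to 14186 after BSA, where replicate 2 was high, and 5236 to 15809 after rzIl26, where replicates 2 and 3 were high. Of these 16 liver genes 0 passed the threshold by edgeR's quasi-likelihood test, also with 0 at an unadjusted p-value under 0.05.

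Peroxisomal transport and export came first among the members by size of the change. The transporter *abcd3a* encodes a membrane protein that carries acyl-CoA into the peroxisome. It had 748, 689 and 694 CPM after BSA and 471, 409 and 473 CPM after rzIl26. All 3 rzIl26 libraries lay below the lowest BSA library, and the log2 fold change was -0.66 (adjusted p = 0.0054, SE 0.08), a level of 0.635 times that after BSA. The carnitine octanoyltransferase gene *crot*, whose enzyme turns shortened chains into carnitine esters for export, had 40.9, 44.0 and 41.4 CPM after BSA and 31.9, 19.9 and 26.2 CPM after rzIl26. Its groups did not overlap either, but the rzIl26 libraries were spread from 19.9 to 31.9 CPM, and the log2 fold change was -0.70 (adjusted p = 0.0258, SE 0.16). The *abcd3a* call held in all 18 alternative fits (adjusted p at most 0.027). That of *crot* was lost in 4 of the 6 fits without 1 library (BSA replicate 1, 2 or 3 or rzIl26 replicate 3) and with scaling by library totals alone (adjusted p up to 0.073).

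The genes of both enzymes of alpha-oxidation, the removal of 1 carbon from methyl-branched chains such as phytanic acid, were lower after rzIl26 as well. The phytanoyl-CoA hydroxylase gene *phyh* had 662, 617 and 571 CPM after BSA and 417, 430.3 and 456 CPM after rzIl26. The 2-hydroxyacyl-CoA lyase gene *hacl1*, which acts on the product of *phyh*, had 59.9, 65.9 and 58.8 CPM after BSA and 40.9, 40.7 and 43.2 CPM after rzIl26. In either gene the highest rzIl26 library lay below the lowest BSA library. The log2 fold change was -0.51 (adjusted p = 0.00942, SE 0.08) for *phyh* and -0.56 (adjusted p = 0.00761, SE 0.08) for *hacl1*. Both calls held in all 18 alternative fits, with adjusted p-values of at most 0.0373 and 0.0305.

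Peroxisomal beta-oxidation had 4 of 6 genes lower and a median log2 fold change of -0.33. The first step was represented by *acox3*, the oxidase that in mammals acts on branched chains, with 224, 222 and 209 CPM after BSA and 167, 137 and 173 CPM after rzIl26. All 3 rzIl26 libraries were below the BSA libraries, and the log2 value was -0.46 (adjusted p = 0.0209, SE 0.10). Its call was lost with library totals alone and without BSA replicate 1 or 2 (adjusted p up to 0.0739). Hydration and the other oxidation are carried out by the bifunctional enzymes of *hsd17b4* and *ehhadh*, which differ in the stereochemistry of their intermediates. The *hsd17b4* gene had 609, 605 and 574 CPM after BSA and 534, 504 and 471 CPM after rzIl26, without overlap, and a log2 fold change of -0.24 (adjusted p = 0.0494, SE 0.07). This was the call closest to the threshold among all members, and it was lost in 13 of 18 alternative fits (adjusted p up to 0.43), among them 5 of the 6 without 1 library. For *ehhadh* the groups overlapped at 90.6, 105 and 96.6 CPM after BSA and 96.8, 84.0 and 82.5 CPM after rzIl26, and the value of -0.15 (95% interval -0.37 to 0.07) did not pass.

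The last step is thiolysis, and of its genes *scp2a* passed the threshold and *acaa1* did not. The *scp2a* gene, whose product joins a thiolase with a lipid carrier, had 1387, 1347 and 1171 CPM after BSA and 969, 954 and 997 CPM after rzIl26. It gave 33.4% of the summed CPM of the 10 peroxisomal genes after BSA, a share that is not corrected for transcript length. Its groups did not overlap and its log2 fold change was -0.42 (adjusted p = 0.0142, SE 0.08). This call was lost when rzIl26 replicate 2 was left out (adjusted p = 0.052) and held in the other 17 alternative fits. The thiolase gene *acaa1* had 159, 162 and 141 CPM after BSA and 149, 147 and 145 CPM after rzIl26, with the rzIl26 libraries within the range of BSA, and a value of -0.07 (95% interval -0.25 to 0.11). The dienoyl-CoA reductase gene *decr2*, which prepares unsaturated chains for the cycle, had 109, 99.5 and 83.2 CPM after BSA and 68.0, 67.3 and 74.5 CPM after rzIl26. It was lower without overlap, at -0.47 (adjusted p = 0.026, SE 0.11), and this call was lost in 4 of the 6 fits without 1 library (BSA replicate 1 or 2 or rzIl26 replicate 1 or 2), with library totals alone and with the replicate number as a block (adjusted p up to 0.085).

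The summed CPM of the 10 peroxisomal genes was 4089, 3956 and 3639 after BSA and 2945, 2794 and 2941 after rzIl26. The means were 3895 ± 231 and 2893 ± 86.2 CPM (SD, n = 3), a ratio of 0.743, and the groups did not overlap. The count of 8 lower genes of this class moved to 4 without BSA replicate 1, 4 without BSA replicate 2, 5 without rzIl26 replicate 2 and 4 with library totals alone. The background moved in the same direction in the fits without a library, to 3.72%, 4.6% and 3.95% of all rows called lower, respectively, and was 3.78% with library totals alone. All 10 genes stayed below 0 in every fit except that with library totals alone, where 8 did.

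**Figure D2:**
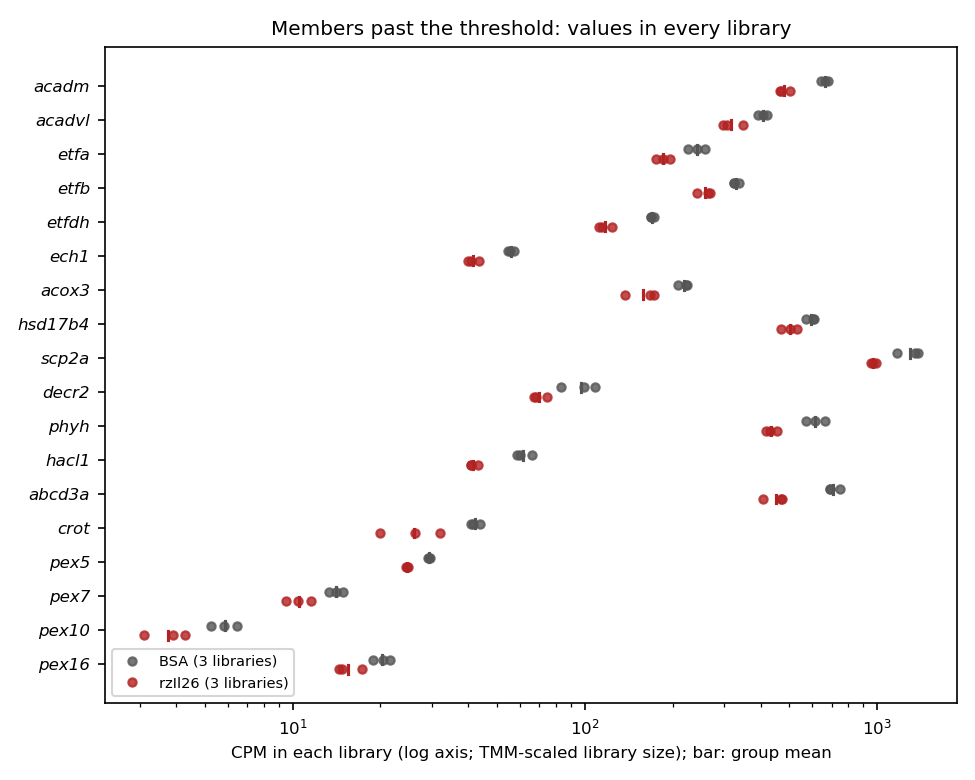
CPM (log axis) of the 18 members past the threshold, 1 line per gene, with 3 points per group and a bar at the group mean. In every gene the 3 rzIl26 libraries lie to the left of the 3 BSA libraries, and the genes are ordered by class.

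Peroxins build the organelle, and their tested members ranged from 3.09 CPM for *pex10* to 72.3 CPM for *pex19* in single libraries, values that are not per transcript length. All 12 tested genes were below 0 and 4 passed the threshold. Of the import receptors, *pex5* encodes the protein that recognises the targeting signal at the end of most peroxisomal enzymes. It had 29.1, 29.5 and 29.4 CPM after BSA and 24.4, 24.8 and 24.7 CPM after rzIl26, tight within each group and without overlap, and a log2 fold change of -0.25 (adjusted p = 0.0454, SE 0.07). The *pex7* gene encodes the receptor for a second signal near the start of the protein, which in mammals is carried by the *phyh* and *acaa1* products. It had 13.4, 14.1 and 14.9 CPM after BSA and 11.6, 10.5 and 9.46 CPM after rzIl26, without overlap, and its log2 value was -0.43 (adjusted p = 0.0395, SE 0.11).

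The other calls concerned the ubiquitin ligase that recycles these receptors and the insertion of membrane proteins. The ligase gene *pex10* had 6.46, 5.84 and 5.27 CPM after BSA and 3.89, 3.09 and 4.30 CPM after rzIl26, that is 124, 88 and 102 counts against 63, 72 and 79 counts, and a log2 fold change of -0.65 (adjusted p = 0.041, SE 0.17). The membrane protein gene *pex16* had 18.9, 20.5 and 21.6 CPM after BSA and 17.3, 14.4 and 14.8 CPM after rzIl26, without overlap, and a log2 fold change of -0.39 (adjusted p = 0.0447, SE 0.11). The membrane factors *pex3* (-0.16) and *pex19* (-0.15) and the docking gene *pex13* (-0.14) overlapped between groups and did not pass. The division factor gene *pex11g* (-0.35, adjusted p = 0.076) and the membrane anchor gene *pex26* (-0.30, adjusted p = 0.11) had groups that did not overlap, without passing the threshold.

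Each of the 4 peroxin calls was lost in at least 8 of the 18 alternative fits. Without 1 library the count of 4 fell to 0 (BSA replicate 1, 2 or 3 or rzIl26 replicate 2), to 1 (rzIl26 replicate 3) or to 3 (rzIl26 replicate 1), and it was 0 with library totals alone, with liver content as a covariate and with the replicate number as a block. Of all rows, 3.72% to 8.06% were called lower in the fits with a count of 0, against 9.6% in the main fit. Where the count was 0 in these fits, the number at an unadjusted p-value under 0.05 was between 1 and 7, and DESeq2 called 3. Their median stayed between -0.33 and -0.14 in every fit, and all 12 stayed below 0 except with library totals alone, where 8 did. The summed CPM of the 13 rows was 247, 247 and 238 after BSA and 219, 195 and 209.6 after rzIl26, a ratio of 0.852.

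In mitochondria, 5 of 19 genes were lower, and these belonged to the entry of electrons into the respiratory chain and to the first oxidation step. The electron transfer flavoprotein, a heterodimer of the *etfa* and *etfb* products, takes electrons from the acyl-CoA dehydrogenases and from dehydrogenases of amino acid breakdown. The product of *etfdh* passes them on to ubiquinone. All 3 of these genes were lower after rzIl26. The *etfdh* gene had 169, 169 and 173 CPM after BSA and 115, 112 and 124 CPM after rzIl26, a clear gap between groups, and a log2 fold change of -0.54 (adjusted p = 0.00588, SE 0.07). For *etfa* there were 226, 243 and 258 CPM after BSA and 176, 196 and 185 CPM after rzIl26 (-0.38, adjusted p = 0.0186, SE 0.08). For *etfb* there were 326, 338 and 325 CPM after BSA and 243, 265 and 269 CPM after rzIl26 (-0.35, adjusted p = 0.0161, SE 0.07). The groups overlapped in none of the 3 genes. The *etfdh* call held in all 18 alternative fits (adjusted p at most 0.028). That of *etfa* was lost with library totals alone and without BSA replicate 2 or 3 (adjusted p up to 0.12), and that of *etfb* with library totals alone and without BSA replicate 1 or 2 (up to 0.095).

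The acyl-CoA dehydrogenases, which carry out the first oxidation and are named for the chain length they prefer, had 2 of 4 genes lower and a median of -0.27. The medium-chain gene *acadm* had 646, 682 and 663 CPM after BSA and 465, 469 and 506 CPM after rzIl26. It gave 20.0% of the summed CPM of the mitochondrial genes after BSA and was lower without overlap, at -0.47 (adjusted p = 0.00706, SE 0.06), a call that held in all 18 alternative fits (adjusted p at most 0.030). The very-long-chain gene *acadvl* had 420.0, 408 and 392 CPM after BSA and 299, 307 and 347 CPM after rzIl26 and a log2 fold change of -0.36 (adjusted p = 0.0215, SE 0.08), with rzIl26 replicate 3 closest to the BSA libraries. Its call was lost without BSA replicate 1, 2 or 3 or rzIl26 replicate 2 and with library totals alone (adjusted p up to 0.10). The long-chain gene *acadl* had groups that did not overlap but did not pass (-0.18, 95% interval -0.34 to -0.02), and the short-chain gene *acads* had a value of 0.11 (95% interval -0.09 to 0.32).

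The carnitine shuttle, through which long chains enter the mitochondrion, had 0 of 4 genes past the threshold by edgeR's quasi-likelihood test, 0 at an unadjusted p-value under 0.05, and 0 in every alternative fit, those with DESeq2 and limma-voom included. The carrier gene *slc25a20* had 175, 175 and 169.6 CPM after BSA and 162, 160.5 and 160.2 CPM after rzIl26. These groups were narrow and did not overlap, at -0.11 (95% interval -0.25 to 0.04), and with library totals alone the rzIl26 libraries were the higher ones (0.06). The genes of the outer-membrane transferase that controls entry, *cpt1aa* (-0.15, 95% interval -0.58 to 0.28) and *cpt1b* (0.00, 95% interval -0.34 to 0.34), and that of the inner-membrane transferase, *cpt2* (0.02, 95% interval -0.20 to 0.24), overlapped between groups. For *cpt1aa* this interval does not exclude a fall of the size seen in *acadm*, and for *cpt2* it does.

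The chain-shortening enzymes after the first oxidation likewise had 0 of 6 genes past the threshold by edgeR's quasi-likelihood test, with *echs1* the sole gene at an unadjusted p-value under 0.05 and 0 in every alternative fit with DESeq2, limma-voom or another setting. The beta subunit gene of the trifunctional protein, *hadhb*, had 259, 261 and 253 CPM after BSA and 251, 252 and 249.9 CPM after rzIl26. The groups lay next to each other with a gap of less than 1 CPM, and the value was -0.04 (95% interval -0.17 to 0.10). The alpha subunit gene *hadhab* (-0.01, 95% interval -0.18 to 0.16) and its copy *hadhaa* (0.15, 95% interval -0.24 to 0.54) overlapped between groups, and how reads shared by such copies were counted is not given in the sources used here. The thiolase gene *acaa2* (-0.12, 95% interval -0.39 to 0.15) and the hydroxyacyl-CoA dehydrogenase gene *hadh* (-0.16, 95% interval -0.35 to 0.03) did so too, while the enoyl-CoA hydratase gene *echs1* (-0.18, 95% interval -0.35 to -0.02) was lower without overlap. The isomerase gene *eci1* had 34.0, 36.5 and 32.5 CPM after BSA and 42.5, 30.6 and 31.8 CPM after rzIl26, with rzIl26 replicate 1 above and the other two below the BSA range (0.02, 95% interval -0.29 to 0.34), and the reductase gene *decr1* had a value of 0.11 (95% interval -0.11 to 0.32).

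Summed over the 19 mitochondrial genes, the CPM was 3274, 3420 and 3252 after BSA and 2731, 2770 and 2869 after rzIl26, with means of 3315 ± 91.0 and 2790 ± 71.0 CPM (SD, n = 3) and a ratio of 0.841. The count of 5 lower genes was 3 without BSA replicate 1, 2 without BSA replicate 2, 3 without BSA replicate 3 and 2 with library totals alone. Of all rows, 3.72%, 4.6%, 4.91% and 3.78% were called lower in these fits, respectively, against 9.6% in the main fit. Under that last scaling the class median was 0.04, above 0, as all fold changes shifted by a median of 0.16.

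Of the 4 genes assigned to both organelles, *ech1*, which encodes a dienoyl-CoA isomerase, had 55.5, 57.3 and 54.5 CPM after BSA and 39.9, 40.9 and 43.5 CPM after rzIl26. It was lower without overlap, at -0.43 (adjusted p = 0.0119, SE 0.07), and this held in all 18 alternative fits (adjusted p at most 0.0475). The dehydrogenase gene *acad11* (0.14, 95% interval -0.16 to 0.44) and the isomerase gene *eci2* (0.07, 95% interval -0.15 to 0.28) had overlapping groups and did not pass. The carnitine acetyltransferase gene *crata* was not tested. Counting this class as mitochondrial gave 6 lower genes, and counting it as peroxisomal gave 9.

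**Figure D3:**
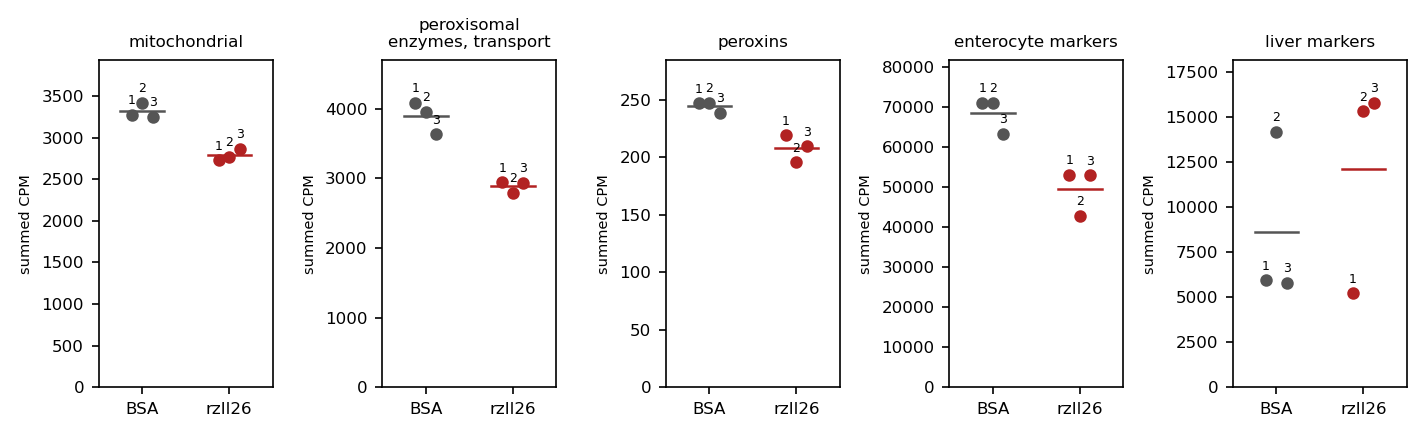
Summed CPM per library (points, numbered by replicate, with a bar at the group mean) of 3 classes of members and of the enterocyte and liver marker lists, each panel starting at 0. The sums of the members and of the enterocyte markers separate the groups, whereas the liver markers separate BSA replicate 2 and rzIl26 replicates 2 and 3 from the rest.

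Of 10 markers of absorptive enterocytes tested 3 passed the threshold, all lower, and 7 did not, with 9 below 0 and a median log2 fold change of -0.40. Their summed CPM was 63436 to 71213 after BSA and 42926 to 53214 after rzIl26, a ratio of 0.725 beside 0.743 for the peroxisomal class. This sum was carried by *apobb.1*, *chia.2* and *apoa4b.1*, which gave 88.5% of it after BSA, and *apobb.1* overlapped between groups and did not pass. Of the other markers, named after their values were seen, *rbp2a* was lower without overlap (-0.59, adjusted p = 0.0054 by edgeR). The groups of *slc15a1b* did not overlap either, but it did not pass (-0.43, adjusted p = 0.0774 by edgeR). Groups overlapped without a call for *vil1* (0.05), *cldn15la* (-0.07), *cdx1b* (-0.12), *mttp* (-0.19) and the near-absent *fabp2* (-0.49). The enterocyte list shares *apobb.1*, *apoa4b.1* and *mttp* with the lipid droplet and lipoprotein list below, and *fabp2* with that of fatty acid uptake and activation. The part of enterocyte content in the result was not tested. In these bulk pools fewer cells of a type and less RNA per cell cannot be told apart. Markers of lysosome-rich enterocytes did not follow this direction, as 4 of 4 tested were above 0, but only 1 of them passed the threshold. The summed CPM of this list was 6567 to 7220 after BSA and 7670 to 9825 after rzIl26. Of the 8 genes listed 4 were tested, and *cubn* and *amn* had no row. Liver content was high in 1 of 3 BSA and 2 of 3 rzIl26 libraries, with a median log2 fold change of 0.50 over the liver list, opposite in sign to the members. With liver content as a covariate the peroxisomal class, the mitochondrial class and the peroxins had 7, 5 and 0 lower genes. Their medians were -0.47, -0.14 and -0.30, and 8.06% of all rows were called lower in that fit. The part of liver content in the result was not tested. The summed CPM of other lists was 34701 to 67009 for pancreatic acinar genes, 1499 to 3298 for skeletal muscle, 3423 to 4362 for smooth muscle and 120.2 to 138.7 for leukocytes, with overlapping groups except in smooth muscle. In the epidermis and fin list 4 of 6 genes were higher and 0 lower, against 9.27% of all rows higher. The log2 fold changes of this list were large, from 0.24 to 4.20 with a median of 1.37. The part of such tissue in the result was not tested.

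Other genes of lipid metabolism, listed by function with earlier results of these data known, were examined beside the members. The background for each list was 9.6% of all rows called lower and 9.27% called higher. Among genes of fatty acid uptake and activation 6 of 18 were lower and 2 higher, with a median of -0.47. The 4 with the lowest adjusted p-values were the acyl-CoA synthetase gene *acsbg2* (-0.98, adjusted p = 0.00312, SE 0.08), the acyl-CoA binding protein gene *dbi* (-0.84, adjusted p = 0.00432, SE 0.09), the fatty acid binding protein gene *fabp1b.1* (-0.79, adjusted p = 0.00566, SE 0.10) and, in the opposite direction, *acbd3*, which encodes a Golgi protein with an acyl-CoA binding domain (0.65, adjusted p = 0.0109, SE 0.11). Activation by synthetases precedes both the carnitine shuttle and peroxisomal import. In the lipid droplet and lipoprotein list 5 of 15 were lower and 2 higher, and these included the apolipoprotein genes *apoa4b.2* (-0.94, adjusted p = 0.00393, SE 0.09) and *apoa4b.1* (-0.51, adjusted p = 0.0109, SE 0.08), the lipid droplet gene *cideb* (-0.57, adjusted p = 0.00588, SE 0.07) and, higher, the droplet coat gene *plin2* (1.73, adjusted p = 0.00566, SE 0.22).

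Nuclear receptors of the PPAR family, which bind fatty acids and in mammals switch on many of the member genes, were listed with their partners. Here 3 of 13 genes were lower and 0 higher, with 8 below 0, 5 above 0 and a median log2 fold change of -0.17. The *pparg* gene had 68.5, 58.4 and 61.0 CPM after BSA and 38.0, 36.4 and 39.5 CPM after rzIl26, a log2 fold change of -0.72 (adjusted p = 0.0054, SE 0.09). The *pparaa* gene, a copy of the receptor linked to fatty acid oxidation, had 119, 114 and 94.1 CPM after BSA and 82.0, 66.1 and 80.8 CPM after rzIl26. Its log2 value was -0.52 (adjusted p = 0.028, SE 0.12). The other copy, *pparab*, named after its values were seen, had overlapping groups and did not pass (0.28, adjusted p = 0.338 by edgeR). The partner gene *rxrgb* was lower, at -0.64 (adjusted p = 0.025, SE 0.15). Of 11 other genes known in mammals or fish as PPAR targets 3 were lower, *ucp1* (-0.79, adjusted p = 0.00761, SE 0.11), *pdk4* (-0.52, adjusted p = 0.0168, SE 0.10) and *cyp4t8* (-0.31, adjusted p = 0.0239, SE 0.07), and *plin2* was higher as given above.

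Outside the members, a list of other peroxisome matrix and membrane genes and their relatives had 27 tested genes. Of these 7 were lower and 1 was higher, with a median of -0.23. The 4 with the lowest adjusted p-values were the NADH pyrophosphatase gene *nudt12* (-0.74, adjusted p = 0.00402, SE 0.08), the membrane tether gene *acbd5a* (-0.75, adjusted p = 0.01, SE 0.12), the gene *abcd4*, whose product in mammals is a lysosomal cobalamin transporter related to the peroxisomal ones (-0.66, adjusted p = 0.0117, SE 0.11) and the pipecolic acid oxidase gene *pipox* (-0.70, adjusted p = 0.0136, SE 0.13). The genes that divide both organelles had 0 of 5 past the threshold by edgeR's quasi-likelihood test and 0 at an unadjusted p-value under 0.05, and were not run under the other tools. In ketone and branched acyl-CoA metabolism 2 of 19 were lower, *ivd* (-0.63, adjusted p = 0.0122, SE 0.11) and *acat2* (-0.53, adjusted p = 0.0148, SE 0.10), and 1 was higher, *oxct1a* (0.70, adjusted p = 0.0278, SE 0.17). Of the ketone and branched acyl-CoA list 10.5% were lower and 5.26% higher, near or below the 9.6% and 9.27% of all rows. The *ivd* product is a dehydrogenase of leucine breakdown that delivers its electrons to the flavoprotein encoded by *etfa* and *etfb*. Fatty acid synthesis had 1 lower gene, the regulator gene *srebf1* (-0.59, adjusted p = 0.00942, SE 0.09), and 1 higher, the elongase gene *elovl1a* (0.65, adjusted p = 0.0136, SE 0.12), of 10, and a median of 0.18. At 10% lower and 10% higher, this list too was near the shares of all rows.

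**Figure D4:**
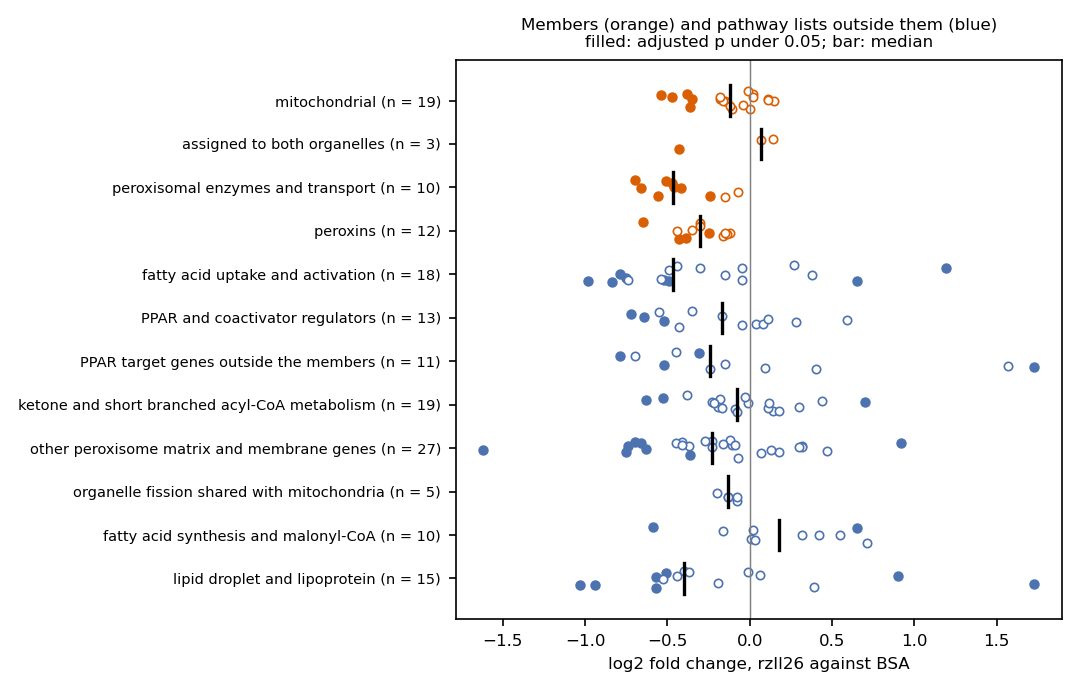
Log2 fold changes of the 4 classes of members (orange) and of 8 lists of other lipid and peroxisome genes (blue), 1 point per tested gene, filled where the adjusted p-value is under 0.05, with a bar at the median. The peroxisomal class, the peroxins and the organelle fission list have no point above 0. The median is -0.47 both in the peroxisomal class and in the fatty acid uptake and activation list. The fatty acid synthesis list is the blue list with a median above 0, at 0.18.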

How the data were processed

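RNA was sequenced from 6 pools of larval guts, and the authors deposited 1 table of raw counts per transcript accession, made against the danRer11 build per the labels. The aligner and the counter are not given in the sources used here. The counts were used as deposited, in R 4.3.3. Gene names were matched by accession to a RefSeq table of another assembly, used for names alone, which named 15776 of 16134 rows. Rows kept by filterByExpr (minimum count 10) numbered 10576. They were scaled by TMM and tested with edgeR 4.0.16 (quasi-likelihood, Benjamini-Hochberg over all rows, threshold 0.05). The standard error is the fold change divided by the root of the F statistic. Alternatives used DESeq2 1.42.0, limma 3.58.1, other scalings, filters and designs. Some members enter the counts and medians but are not reported here by name. The others are accounted for by name, with the value in every library for each member past the threshold and, in roles with no call, for the member with the highest mean CPM. From the other lipid lists at most 4 genes past the threshold were named, by lowest adjusted p, besides the gene copies *pparab* and *abcd3b*. Members and lists were chosen with earlier results of these data known. Planned readouts of targeting signals, promoter motifs and levels per transcript length were not made.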

Additional observations from a re-analysis of the deposited data

How the results depend on the processing

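Of the 18 members called lower, 6 kept the call under all 18 alternatives (*acadm*, *etfdh*, *ech1*, *phyh*, *hacl1* and *abcd3a*) and 12 lost it under at least 1. Scaling by library totals alone ended 11 of the calls. It shifted the median of all rows by 0.16, and the calls over all rows from 980 higher and 1015 lower to 1783 higher and 400 lower. Under it the mitochondrial class had 2 lower and a median of 0.04, the peroxisomal class 4 and -0.30, and the peroxins 0 and -0.14. It also left 13 of the 37 genes below 0 no longer below it, of which 0 had been called, among them *slc25a20* at 0.06, *hadhab* at 0.15, *hadhb* at 0.12, *acaa2* at 0.04, *ehhadh* at 0.01, *acaa1* at 0.10, *pex13* at 0.02, *pex19* at 0.02, *cpt1b* at 0.16, and *cpt1aa*, *hadh* and *pex3* at 0.00. In CPM by library totals alone, chosen after seeing the data, members whose groups did not overlap numbered 16 lower and 8 higher, against 25 and 0. Of all rows, 10.5% were lower without overlap by library totals alone and 20.9% in the main scaling. Upper-quartile scaling turned *cpt2* to -0.01.

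Leaving out 1 library in turn gave 2 to 5 lower genes in the mitochondrial class, 4 to 7 in the peroxisomal class and 0 to 3 among the peroxins. Of all rows, 3.72% to 8.76% were called lower in these fits. The fold changes in these fits ran from -0.28 to 0.02 for *cpt1aa*, from -0.03 to 0.08 for *cpt2*, from -0.06 to 0.02 for *hadhab*, from -0.14 to 0.11 for *eci1* and from -0.01 to 0.12 for *eci2*. At an unadjusted p-value under 0.05 in the main edgeR fit, 7 of 12 peroxins were lower, against 17.8% of all rows. With liver content as a covariate 0 peroxins were called lower, against 8.06% of all rows. *pex11g* passed without rzIl26 replicate 1 (adjusted p = 0.0397).

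The correlations of same-numbered deviations from the group means were 0.38, 0.18 and -0.02, and those of different-numbered ones ran from -0.34 to 0.26. These values cannot decide whether the replicate numbers pair the samples, since deviations of 3 libraries from their own mean are tied to each other. With the replicate number as a block 6 of the 18 calls were lost, and 0 peroxins, 6 peroxisomal and 5 mitochondrial genes were lower. Over all rows 7.98% were called lower with the block, against 9.6% in the main fit. The cause of these changes was not tested.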

Other observations

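Chosen after its values were seen, the transporter gene *abcd3b*, a copy of *abcd3a* outside the members, had 23.3, 20.6 and 23.5 CPM after BSA and 20.5, 20.4 and 23.2 CPM after rzIl26, with a log2 fold change of -0.07 (adjusted p = 0.63 by edgeR). Whether it differed from *abcd3a* was not tested.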
